A study of Equus caballus with 40 samples.

Results

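The comparison described here set equine chondrocyte pellets that received autologous conditioned serum (ACS) on top of interleukin-1β (IL-1β) against pellets that received IL-1β alone, both harvested after 48 h of treatment. Its members are 8 of the 40 arrays of the series, 4 of ACS and 4 of IL-1β alone, chosen by their titles, and all 30559 probe sets of the array were tested with no filter on low values. Chondrocytes isolated from horse cartilage had been grown as three-dimensional pellets. Both groups had a stimulation of 48 h beforehand, in which recombinant equine IL-1β was given at 5 ng/ml, and the control pellets of the series never saw IL-1β. Besides ACS, stimulated pellets received plain autologous serum (AES) or a treatment that the labels call AES24h, and all of these, the pellets on IL-1β alone and the unstimulated controls were harvested at 2 h and 48 h, 4 arrays a group. The labels give no serum dose, do not explain AES24h, and do not say how many horses or cultures lie behind the 4 replicates, so the p-values measure the spread between these arrays, which may be technical. Each value comes from the RNA of a whole pellet, in which fewer cells of a type and less RNA per cell cannot be told apart.

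Cartilage is built by chondrocytes from type II and type XI collagen and the proteoglycan aggrecan, and aggrecan is lost early in osteoarthritis through aggrecanases of the ADAMTS family. IL-1β drives chondrocytes to make such proteases, prostaglandin and nitric oxide while they make less matrix. ACS is serum from blood incubated to raise its content of IL-1 receptor antagonist, and it is injected into joints of horses and people. The gene roles stated here are those known from human and mouse.

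The pellets carried chondrocyte transcripts in both groups. Of 11 chondrocyte markers measured, 10 had a mean above the highest array median (4.59 on the log2 scale) in both groups, and MATN3 did not. The medians of the 40 arrays ran from 4.35 to 4.59, so the 8 arrays were close in scale. Each of the 8 correlated with the others of its own group at 0.965 to 0.981 across probe sets and with arrays of the other group at 0.962 to 0.981. Precision is limited by the 4 arrays of each group.

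Pellets with ACS at 48 h differed from pellets with IL-1β alone by a small set of transcripts, led by higher ADAMTS5 and lower CLEC3A. In the limma fit over all 40 arrays 80 probe sets passed an adjusted p of 0.05, which is 0.262 percent of those tested, and "called" is used for these. ACS was higher in 50 of them (0.164 percent) and lower in 30 (0.0982 percent). The 80 covered 74 named genes, 48 higher and 26 lower, and 6 probe sets without a listed gene. Of these 6, 1 lower probe set repeated the values of another, so the counts hold that measurement more than once. The log2 difference reached at least 1 in 26 of the higher and 17 of the lower probe sets, and the medians were 1.04 and -1.04. All 4 ACS arrays lay on the called side of the IL-1β mean in all 80, and the groups did not overlap in 76, against 4.57 percent of all probe sets (2.14 percent higher and 2.43 percent lower). The 80 were chosen for this same difference, which by itself makes their groups tend to separate. FCER1G, ID3, SH3PXD2B and PHGDH were the called genes whose groups overlapped. The median difference over all probe sets was -0.02, and 14362 of the 30559 differences lay above 0. An unadjusted limma p under 0.05 was reached by 7.6 percent of all probe sets, 1105 higher and 1219 lower. These shares and the 0.262 percent called are the background for the gene list counts below.

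**Figure D1:**
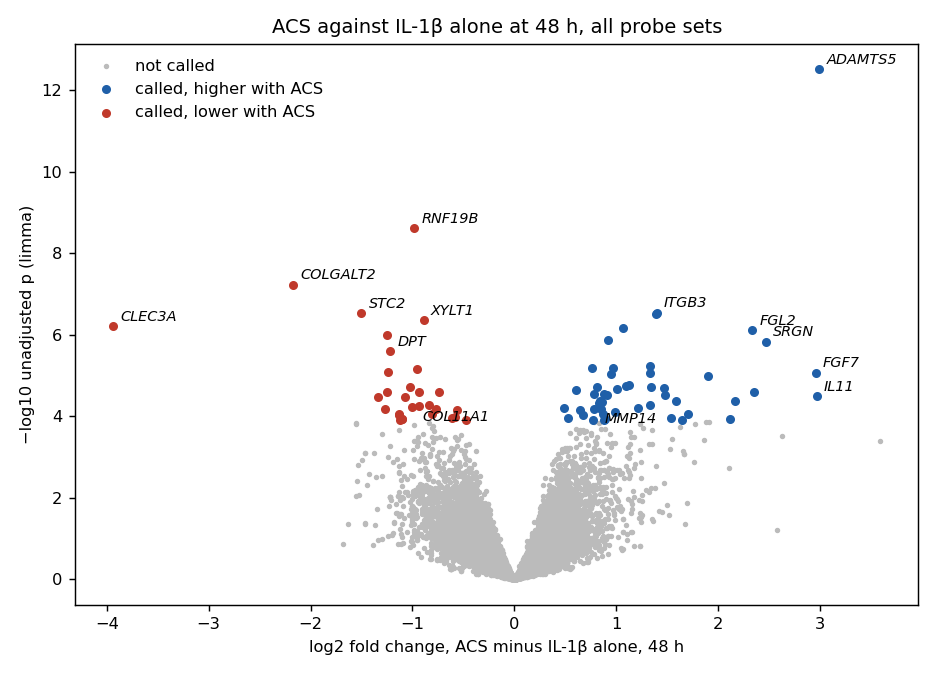
Log2 difference of ACS minus IL-1β alone at 48 h (x axis) against −log10 of the unadjusted limma p (y axis) for every probe set, with the 50 called higher in blue, the 30 called lower in red and the rest in grey. ADAMTS5 stands apart from all other probe sets in its p-value, and CLEC3A in the size of its decrease.

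The number of calls depended on the spread pooled over all 10 groups and changed when single arrays were left out. With the spread taken from the 8 arrays alone, 1 probe set was called, ADAMTS5. With arrays centred on their medians the split was 50 higher and 18 lower. The highest count of any setting was 246, with a replicate block, which is not used here because the labels state no pairing. When any 1 of the 8 arrays was left out, the count ran from 16 without IL-1β array 2 to 103 without ACS array 2. It was 19 without ACS array 4, 27 without IL-1β array 1, 29 without IL-1β array 4, 36 without ACS array 3 or IL-1β array 3, and 45 without ACS array 1. An omission also makes its group smaller, and this was not separated from the weight of the array left out. Under all 8 omissions 14 genes kept their call and none of the 80 changed sign. The 7 higher ones were ADAMTS5, SRGN, FGL2, ITGB3, ANGPT4, HEG1 and RBMS2, and the 7 lower ones were XYLT1, RNF19B, DPT, PDZD2, STC2, COLGALT2 and CLEC3A.

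ADAMTS5, an aggrecanase that cuts aggrecan in cartilage, rose by far the most clearly. Its log2 values with IL-1β alone were 7.19, 6.23, 7.44 and 6.71, and with ACS they were 9.47, 9.75, 9.90 and 10.42. Every ACS array lay well above every IL-1β array, and the difference was 2.99 (SE 0.26, limma adjusted p = 9.58e-09), a 7.96-fold higher level. MMP14, a membrane-bound collagenase that also activates other metalloproteinases, was at 8.56, 8.44, 8.55 and 8.34 with IL-1β and at 9.17, 9.10, 9.2 and 9.54 with ACS. The groups were separate and the rise was 0.78 (limma adjusted p = 0.0355), although the call was lost in 7 of the 8 omissions, with an adjusted p of up to 0.212 without ACS array 4. CEMIP, which takes part in the breakdown of hyaluronan, rose by 1.47 (adjusted p = 0.0217) from 7.60, 7.92, 8.02 and 7.97 to 9.40, 9.07, 9.16 and 9.77, and lost its call in 5 omissions (up to 0.139 without ACS array 4).

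Of the 30 measured genes of the matrix-degrading list 2 were called, both higher, and the list's median was 0.20. ADAMTS1 (1.77, adjusted p = 0.0541) lay just outside the threshold. The collagenases and stromelysin that IL-1β is known to induce did not pass. MMP1 differed by 0.95 (adjusted p = 0.655), MMP13 by 0.67 (0.86) and MMP3 by 0.20 (0.973), and their arrays overlapped between the groups. ADAMTS4, the other main aggrecanase, differed by 0.82 (0.665). Among 14 protease inhibitors 1 was called, ITIH5, and the median was -0.17. Of the metalloproteinase inhibitors TIMP3 stood at 1.17 (adjusted p = 0.0824) and TIMP1 at 0.65 (0.559), and the serine protease inhibitor SERPINE2 at 1.76 (0.173). These 3 had an unadjusted p under 0.05, and in TIMP3 and SERPINE2 the groups did not overlap.

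Among the called genes, the secreted signals with the greatest rise were IL11, a cytokine of the IL-6 family, and FGF7, of the fibroblast growth factor family. IL11 was at 6.69, 6.14, 6.87 and 6.31 with IL-1β and at 11.56, 7.98, 8.89 and 9.45 with ACS. ACS array 1 was far above the other 3, yet all 4 exceeded every IL-1β array. The rise was 2.97 (SE 0.62, adjusted p = 0.0243), and the call was lost in 6 omissions, with an adjusted p of 0.125 and a difference of 2.27 without ACS array 1. FGF7 stood at 6.36, 4.19, 6.48 and 5.96 with IL-1β and at 8.40, 7.94, 9.21 and 9.28 with ACS. The rise of 2.96 (adjusted p = 0.0125) lost its call in 3 omissions. IL-1β array 2 was the low one, and without it the adjusted p was highest, at 0.102, with a difference of 2.44. ANGPT4, a ligand of the endothelial receptor Tie2, rose by 1.39 (adjusted p = 0.00158) from 4.76, 5.48, 5.52 and 5.46 to 5.95, 6.67, 6.62 and 7.53.

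The cytokine and chemokine list had 1 call among 26 measured genes, IL11, and a median of 0.22. Its differences lay above 0 in 22 of 26 genes, where 14362 of all 30559 probe sets did. In 13 of the 26 the means lay below every array median in both groups. IL6 differed by 2.63 but missed the threshold (adjusted p = 0.0815). Its 4 ACS values were 10.50, 6.36, 8.98 and 8.70, against 5.98, 4.89, 7.38 and 5.77 with IL-1β, so ACS array 2 lay within the range of IL-1β alone. CXCL8, a neutrophil attractant, differed by 0.72 (adjusted p = 0.916). In the IL-1 receptor list 0 of 15 genes were called by limma and 3 had an unadjusted p under 0.05, all higher, among 2324 probe sets (7.6 percent) at that level in the whole table. The decoy receptor IL1R2 was the nearest, at 1.91 (adjusted p = 0.0523), and IL1RN, the receptor antagonist itself, was at -0.14 (0.917) with group means below every array median. IL4R, a subunit of the IL-4 receptor, rose by 0.65 (adjusted p = 0.0356) and lost its call in 5 omissions (up to 0.217 without ACS array 4). NOS2 (-0.53, adjusted p = 0.921) and PTGS2 (-0.12, 0.989), the enzymes behind inflammatory nitric oxide and prostaglandin, did not pass, and 0 of 25 genes of that list did by limma, 2 having an unadjusted p under 0.05.

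**Figure D2:**
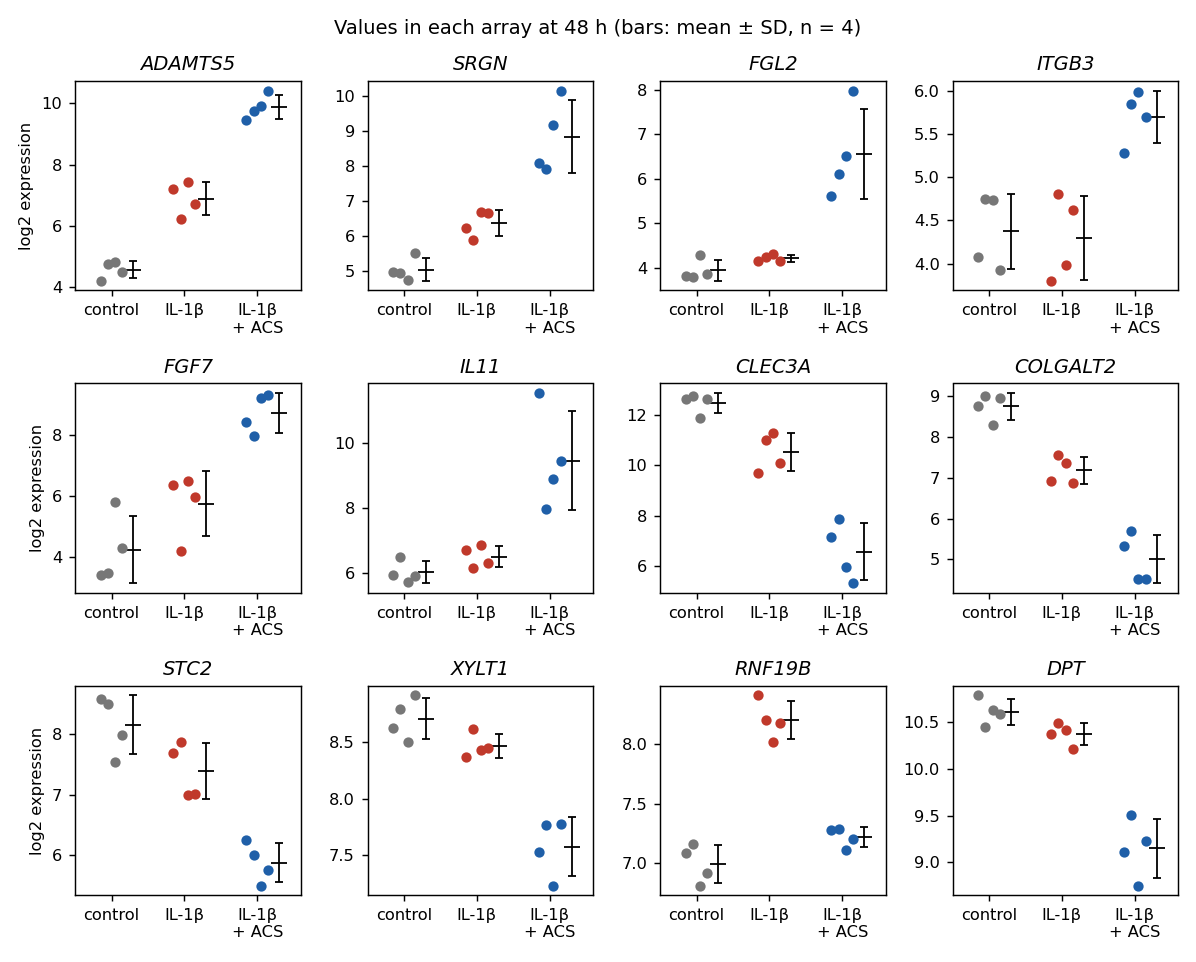
Log2 expression (y axis, a separate scale for each gene) in each of the 4 arrays of control, IL-1β alone and IL-1β with ACS at 48 h, with bars for mean ± SD. In all 12 genes the ACS points are clear of the IL-1β points, upwards in the first 6 and downwards in the last 6.

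SRGN, the core protein of granule proteoglycans, was at 6.23, 5.89, 6.67 and 6.65 with IL-1β and at 8.09, 7.90, 9.18 and 10.15 with ACS. The groups were separate, the rise was 2.47 (SE 0.43, adjusted p = 0.00353), and the call held by a small margin without ACS array 4 (0.0499). FGL2, a secreted protein with a fibrinogen-like domain, was at 4.15 to 4.32 in all 4 IL-1β arrays and at 5.62, 6.11, 6.52 and 7.98 with ACS (2.34, adjusted p = 0.00235). ITGB3, the integrin β3 chain, was at 3.80, 4.80, 3.98 and 4.62 with IL-1β and at 5.28, 5.84, 5.98 and 5.69 with ACS (1.40, adjusted p = 0.00158). Both had an IL-1β mean below every array median, so their direction is clearer than the size of their fold. The same holds for SEL1L3 (1.71), ATP6V0D2 (1.58), a proton pump subunit known from osteoclasts, FCER1G (1.54), a signalling chain of Fc receptors, CDCP1 (0.85) and CCDC146 (0.77). Each of these 5 lost its call in at least 3 omissions, with the highest adjusted p at 0.219 for SEL1L3 without ACS array 3, at 0.182 and 0.312 for ATP6V0D2 and FCER1G without ACS array 4, and at 0.178 and 0.0773 for CDCP1 and CCDC146 without IL-1β array 2.

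VCAM1, an adhesion receptor for leukocytes and a target of NF-kB, was at 6.09, 5.04, 5.72 and 5.88 with IL-1β and at 6.20, 7.32, 8.74 and 8.93 with ACS. ACS array 1 was barely above the highest IL-1β array, and the rise of 2.12 (adjusted p = 0.0477) lost its call in 6 omissions, up to 0.287 without ACS array 4. VCAM1 was the 1 called gene among 31 of the NF-kB list, whose median was 0.08. HEG1, a transmembrane receptor of endothelial junctions, rose by 1.07 (adjusted p = 0.00235) from 4.30, 4.83, 4.67 and 4.24 to 5.86, 4.90, 5.74 and 5.82.

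Leukocyte markers were measured beside these genes. Of 22 markers 1 was called, FCER1G, and 17 had means below every array median in both groups, including PTPRC, CD3E and ITGAM. An unadjusted limma p under 0.05 was found in 3 higher and 2 lower markers, beside 7.6 percent of all probe sets. The list mean ran from 3.65 to 3.93 over the ACS arrays and from 3.42 to 3.83 over the IL-1β arrays, and its median difference was 0.03. FCER1G itself was at 5.38, 4.32, 5.4 and 6.50 with ACS and at 3.44, 4.39, 4.02 and 3.61 with IL-1β, overlapping in ACS array 2. The neutrophil proteins S100A8 (1.26, adjusted p = 0.368) and S100A12 (1.70, 0.428) did not pass, although both had an unadjusted p under 0.05. Markers of endothelium and mural cells had 0 calls among 16 by limma (1 with an unadjusted p under 0.05), and 13 of them lay below every array median in both groups. Red cell and platelet markers had 0 of 7 (1), synovial and tendon markers 0 of 12 (1), bone cell markers 0 of 12 (2), and adipocyte and muscle markers 0 of 14 (1). The part of other cells in these results was not tested.

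RGS2, a brake on G protein signalling, was at 5.79, 5.24, 5.15 and 5.07 with IL-1β and at 9.0, 6.81, 6.30 and 7.78 with ACS. All 4 ACS arrays were higher, but they were spread widely, and the rise of 2.16 (adjusted p = 0.0293) lost its call in 6 omissions (up to 0.141 without ACS array 4). PDE7B, a phosphodiesterase that degrades cyclic AMP, rose by 1.90 (adjusted p = 0.0134) from 5.94, 6.14, 6.91 and 6.46 to 8.54, 7.2, 8.47 and 8.82. STAC, an adaptor of calcium channels, rose by 2.36 (adjusted p = 0.0226), and IL-1β array 1 (6.0) stood nearly level with ACS array 2 (6.09). RCAN1, an inhibitor of calcineurin, rose by 1.33 (0.0125). SPRY1, which dampens receptor tyrosine kinases, rose by 0.99 (0.0397) and, with RCAN1, gave the 2 calls among 33 immediate early genes, whose median was 0.18. PDE7B lost its call in 5 omissions (up to 0.103 without ACS array 4), STAC in 6 (0.107, without IL-1β array 2), RCAN1 in 4 (0.0684, without ACS array 1) and SPRY1 in 7 (0.215, without ACS array 3).

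The lists of TGF-beta and BMP response, Wnt, oxidative stress, contractile and glucocorticoid response genes held 1 call each. The list of growth factors and the insulin-like growth factor axis held 1 higher and 1 lower call among 37. ID3, a target of bone morphogenetic proteins, rose by 1.33 (adjusted p = 0.0118), the 1 call among 36 genes of the TGF-beta and BMP list, in which 11 genes above 0 and 3 below it had an unadjusted p under 0.05. The median of that list was 0.10, and 7.6 percent of all probe sets had such an unadjusted p. SFRP1, a secreted Wnt inhibitor, rose by 1.65 (0.0486), the 1 call of 34 Wnt genes. NOX4, an oxidase that makes hydrogen peroxide, rose by 1.13 (0.0208), the 1 call of 17 oxidative stress genes. TPM1, a tropomyosin of actin filaments, rose by 0.88 (0.0234) from 8.55, 8.77, 8.72 and 8.83 to 9.32, 9.52, 9.95 and 9.60. It was the 1 call of 27 contractile genes, of which 24 had differences above 0 (median 0.25), where 14362 of all 30559 probe sets did. KLF9, a transcription factor induced by glucocorticoids, rose by 0.87 (0.0421), the 1 call of 20 glucocorticoid response genes (median 0.27). The calls of SFRP1, KLF9 and ID3 were lost in 7, 5 and 4 omissions, up to an adjusted p of 0.294, 0.207 and 0.0813 without ACS array 4. Those of TPM1 and NOX4 were lost in 6 and 4, up to 0.12 and 0.088 without ACS array 3.

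On the lower side CLEC3A, a C-type lectin made largely by cartilage, fell the most. It was at 9.69, 11.01, 11.29 and 10.09 with IL-1β and at 7.16, 7.86, 5.99 and 5.33 with ACS. The lowest IL-1β array was far above the highest ACS array, and the log2 value fell by 3.94 (SE 0.65, adjusted p = 0.00233), to 0.0654 of the level with IL-1β alone. COL11A1, the α1 chain of type XI collagen, was at 9.67, 10.26, 10.07 and 10.16 with IL-1β and at 8.61, 9.47, 8.95 and 9.11 with ACS. Its groups were separate, and it fell by 1.01 (adjusted p = 0.035), a call lost in 6 omissions (up to 0.144 without IL-1β array 2).

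CLEC3A and COL11A1 were the 2 calls among 34 cartilage matrix genes, of which 24 had differences below 0 and the median was -0.17. Among all 30559 probe sets 14362 lay above 0. ACAN, the core protein of aggrecan, missed the threshold at -1.55 (adjusted p = 0.0532), although its ACS arrays (8.78, 9.13, 8.13 and 8.08) all lay below its IL-1β arrays (9.74, 10.55, 10.19 and 9.85). COL2A1, the chain of type II collagen, differed by -0.47 (0.916), and its ACS arrays parted into 9.80 and 9.49 in arrays 1 and 2 and 7.62 and 7.45 in arrays 3 and 4, around the IL-1β range of 8.76 to 9.35. COL1A1, a collagen of fibrous tissue, was at -0.52 (0.788). SOX9, the master regulator of chondrocytes, was at -0.43 (0.479). The 23 chondrogenic regulators had 0 calls by limma (3 with an unadjusted p under 0.05) and a median of -0.15.

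COLGALT2, XYLT1 and B4GALNT3, enzymes that add sugars, fell. COLGALT2, which adds galactose to collagen, was at 6.93, 7.57, 7.36 and 6.87 with IL-1β and at 5.33, 5.70, 4.51 and 4.51 with ACS. The groups lay far apart and it fell by 2.18 (SE 0.32, adjusted p = 6.09e-04). It was the 1 call of 20 collagen-modifying enzymes, of which 18 had differences below 0, with a median of -0.29. For comparison, 14362 of all 30559 probe sets lay above 0. The hydroxylases P4HA2 (-0.58, adjusted p = 0.0824) and PLOD1 (-0.64, 0.207) did not pass. XYLT1, which starts the glycosaminoglycan chains of proteoglycans, fell by 0.89 (SE 0.14, adjusted p = 0.00196), from 8.37, 8.61, 8.43 and 8.45 to 7.53, 7.77, 7.23 and 7.78. B4GALNT3, a glycosyltransferase, fell by 0.95 (0.0118) and lost its call in 4 omissions (up to 0.0794 without ACS array 4). XYLT1 and CEMIP were the 2 calls, in opposite directions, among 23 chondroitin sulfate and hyaluronan enzymes.

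STC2, a secreted inhibitor of the protease that frees insulin-like growth factors, fell by 1.5 (adjusted p = 0.00158) from 7.68, 7.87, 6.99 and 7.01 to 6.26, 6.01, 5.50 and 5.76. DPT, a matrix protein that binds dermatan sulfate proteoglycans, fell by 1.22 (0.00547) from 10.37, 10.49, 10.41 and 10.21 to 9.11, 9.51, 8.75 and 9.23. In both, the highest ACS array was below the lowest IL-1β array. ITIH5, a heavy chain of the inter-alpha-trypsin inhibitors that bind hyaluronan, fell by 1.24 (0.0125), and MAMDC2, a secreted proteoglycan, by 1.25 (0.0226). PDZD2, a protein with many PDZ domains, fell by 1.25 (0.00289). ITIH5 lost its call in 4 omissions (up to 0.0677 without ACS array 3) and MAMDC2 in 7 (0.107, without ACS array 4).

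Amino acid metabolism was represented by PHGDH, the first enzyme of serine synthesis, which fell by 1.13 (adjusted p = 0.0427), GPT2, an alanine aminotransferase of mitochondria, which fell by 1.02 (0.0208), and SLC6A9, a glycine transporter, which fell by 1.12 (0.0486). The list of unfolded protein response and ATF4 target genes had PHGDH as its 1 call among 36, and its median was -0.18. In this list 11 members, all lower, had an unadjusted limma p under 0.05, a level reached by 7.6 percent of all probe sets. Its members short of the threshold included PSAT1 (-1.43, adjusted p = 0.228), ASNS (-1.24, 0.149), MTHFD2 (-1.19, 0.17) and ALDH1L2 (-1.13, 0.187), which serve serine, asparagine and folate metabolism. INHBE, an activin chain, fell by 1.34 (0.0243) to an ACS mean below every array median, so its size is uncertain. SLC6A9 lost its call in all 8 omissions, INHBE in 6 and GPT2 in 4, up to 0.226, 0.136 and 0.117 without IL-1β array 2, and PHGDH in 6, up to 0.217 without ACS array 4.

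Of the remaining decreases, RNF19B, a ubiquitin ligase, was the most regular. Its values were 8.41, 8.2, 8.02 and 8.18 with IL-1β and 7.28, 7.29, 7.11 and 7.2 with ACS. The arrays of each group lay within a narrow band, and it fell by 0.98 (SE 0.12, adjusted p = 3.72e-05). SLC40A1, the iron exporter ferroportin, fell by 1.07 (0.0243). BHLHE41, a repressor of the circadian clock, fell by 0.81 (0.0425), the 1 call of 18 clock genes. CYP24A1, which inactivates vitamin D, fell by 0.93 (0.0226), the 1 call of 28 lipid and nuclear receptor genes and again with an ACS mean below every array median. SGCD, a sarcoglycan, fell by 1.14 (0.0421). The calls of SLC40A1, BHLHE41, CYP24A1 and SGCD were lost in 4, 7, 5 and 7 omissions. Without ACS array 4 the adjusted p was highest, at 0.15 for SLC40A1, 0.183 for BHLHE41, 0.131 for CYP24A1 and 0.221 for SGCD.

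**Figure D3:**
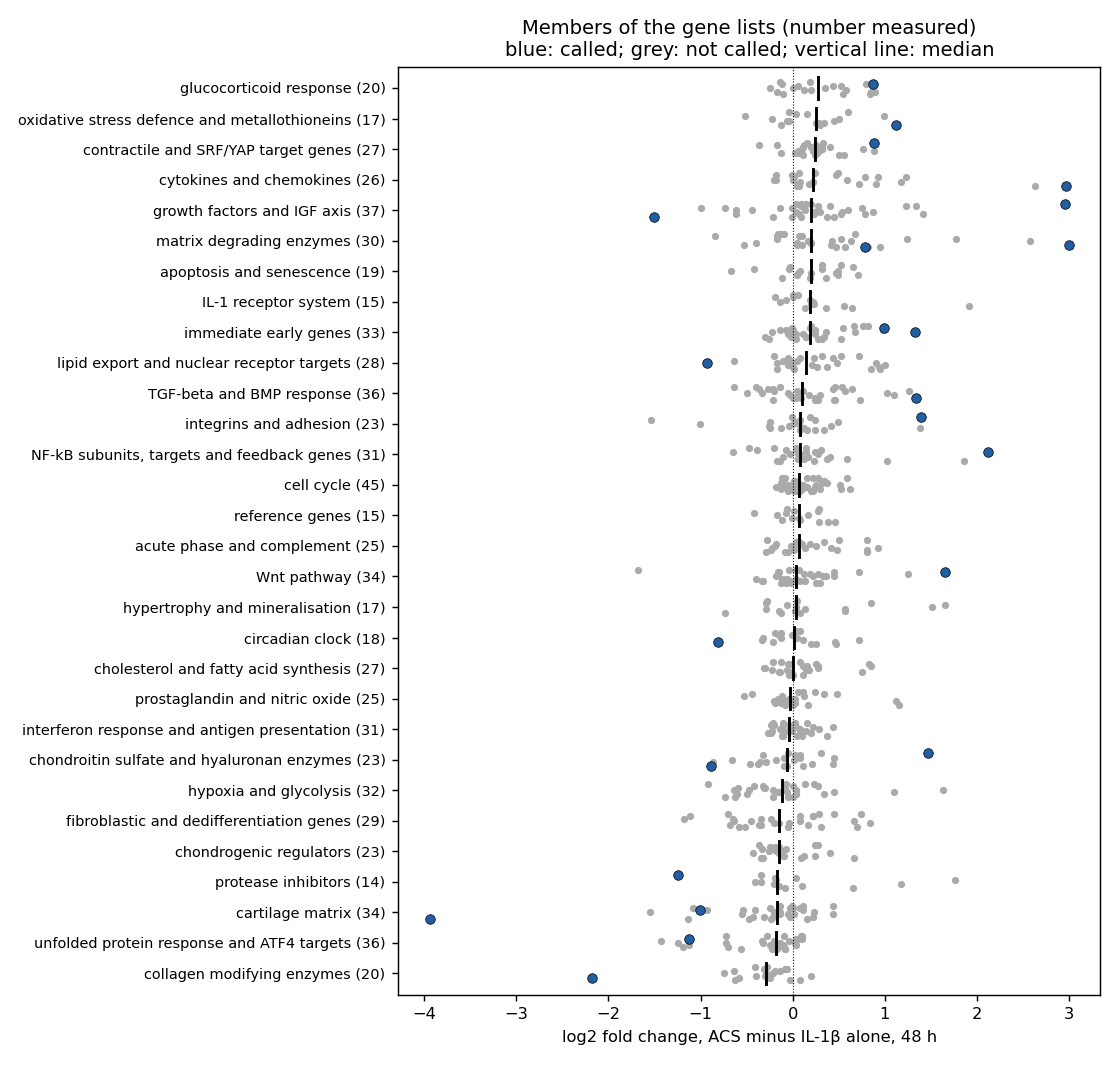
Log2 difference of ACS minus IL-1β alone at 48 h (x axis) for each measured member of 30 gene lists (rows, with the number measured), called members in blue and others in grey, with a vertical line at each list's median. The list medians lie between -0.29 and 0.27, and most members of every list are uncalled.

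Other lists held no called gene. With limma, no gene was called in the lists for hypertrophy and mineralisation (17 measured, 5 with an unadjusted p under 0.05), fibroblastic genes (29, 9), synthesis of cholesterol and fatty acids (27, 2), cell cycle (45, 1), interferon response (31, 0), acute phase and complement (25, 2), hypoxia and glycolysis (32, 5), apoptosis and senescence (19, 5) and reference genes (15, 1). SPP1, which encodes osteopontin, came nearest in the hypertrophy list at 1.65 (adjusted p = 0.122). EPAS1, a hypoxia-inducible factor subunit, stood at 1.63 (0.0615).

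Set beside the control pellets at 48 h, the genes fell into different positions. The contrasts with control share their arrays with the main comparison, so the values are given side by side only. The 4 highest calls of ACS over control were MMP1 (7.95), the chemokine CXCL6 (7.72), the neutrophil collagenase MMP8 (6.16) and IL6 (5.82), and those of IL-1β over control were CXCL6 (7.25), MMP1 (7.0), the chemokine CCL20 (5.34) and C1H15orf48 (5.07). At the low end lay CLEC3A, ANGPTL7 (-5.70), F13A1 (-4.66) and POSTN (-4.43) with ACS, and ANGPTL7 (-4.70), F13A1 (-4.18), POSTN (-3.32) and NELL2 (-3.21) with IL-1β. Of these genes CLEC3A alone was called between ACS and IL-1β. ADAMTS5 was 2.32 above control with IL-1β alone and 5.32 above it with ACS. VCAM1 stood at 2.14 and 4.25, DPYD, which breaks down pyrimidines, at 1.70 and 2.91, and GPAM, which starts glycerolipid synthesis, at 1.70 and 2.71. In these genes the ACS mean lay farther from control than the IL-1β mean did, in the direction of IL-1β. Between ACS and IL-1β alone, DPYD rose by 1.21 (0.0355) and GPAM by 1.00 (0.0217). DPYD lost its call in 7 omissions and GPAM in 6, up to an adjusted p of 0.164 and 0.141 without ACS array 4. The same order held downwards for CLEC3A (-1.94 and -5.88), COLGALT2 (-1.57 and -3.74), COL11A1 (-1.16 and -2.16), B4GALNT3 (-1.46 and -2.41) and ACAN (-1.45 and -3.0).

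In other genes ACS lay near control. RNF19B was 1.21 above control with IL-1β (limma adjusted p = 3.14e-08) and 0.23 above it with ACS (0.471), with control arrays between 6.81 and 7.16. MMP14 stood at -0.59 (0.0963) with IL-1β and 0.19 (0.766) with ACS, and CYP24A1 at 0.68 (0.0766) and -0.25 (0.693). Another kind, with IL-1β near control and ACS apart, included FGL2 (0.27 and 2.61), ITGB3 (-0.07 and 1.32), IL11 (0.49 and 3.46), XYLT1 (-0.24 and -1.13) and PDZD2 (-0.07 and -1.32). Of all probe sets, 1.26 percent were called between IL-1β alone and control (0.484 percent higher, 0.779 percent lower) and 3.85 percent between ACS and control (1.69 percent higher, 2.17 percent lower).

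At 2 h of treatment the fitted differences of these genes were mostly smaller than at 48 h. The arrays of the 2 h comparison are separate from those at 48 h. ACS against IL-1β alone at 2 h gave 8 calls (0.0262 percent), all higher, and RCAN1 was the 1 gene of the 80 among them (1.31 at 2 h, adjusted p = 0.0484, and 1.33 at 48 h). The 80 were chosen for their difference at 48 h, which by itself makes the 2 h difference tend to be smaller. As a description, the median ratio of the 2 h to the 48 h difference over the 80 was 0.103 in size, and 51 of the 80 had the same sign at both times, against 47.1 percent of all probe sets. The 4 highest early genes were NR4A2 (2.94, adjusted p = 0.00101), an orphan nuclear receptor of the immediate early kind, FAM107B (1.66, 0.0134), RGS16 (1.53, 0.0372), a brake on G protein signalling, and the transcription factor TBX3 (1.38, 0.00992). NR4A2 kept its call without any 1 of the 8 arrays at 2 h. TBX3 lost it in 2 omissions (up to 0.129 without IL-1β array 3 at 2 h), FAM107B in 4 (0.197, without IL-1β array 2), RGS16 in 6 (0.35, without IL-1β array 2) and RCAN1 in 7 (0.351, without IL-1β array 3). The other calls at 2 h were NR4A1 (1.30, 0.00101), a close relative of NR4A2, ETS2 (1.34, 0.0484) and REL (1.06, 0.0484), named here after their values were seen. NR4A1 kept its call in all 8 omissions at 2 h, while ETS2 and REL each lost it in 7 (up to 0.365 without ACS array 2 and 0.364 without IL-1β array 2). The count at 2 h was 2 without ACS array 2 or IL-1β array 3, 3 without IL-1β array 2, 4 without ACS array 3 or IL-1β array 4, and 16 without IL-1β array 1. Of the 33 immediate early genes 3 were called at 2 h and the median was 0.43, beside 0.18 at 48 h. At 48 h NR4A2 was at 0.98 (0.534), and FAM107B at 1.23 just missed the threshold (0.0541).

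A direct test of the ACS effect at 48 h against that at 2 h called 2 probe sets (0.00654 percent), 1 in each direction (0.00327 percent each). ADAMTS5 differed by 0.57 at 2 h and 2.99 at 48 h, a change of 2.42 (SE 0.37, adjusted p = 0.00537), and this call held without any 1 of the 16 arrays. RGS16 went the other way, from 1.53 at 2 h to -0.80 at 48 h, a change of -2.34 (SE 0.41, adjusted p = 0.0272). Its arrays at 2 h lay between 7.37 and 8.17 with ACS and between 5.70 and 6.91 with IL-1β, and at 48 h between 4.29 and 5.69 with ACS and between 5.27 and 6.10 with IL-1β. The RGS16 call was lost in 11 of 16 omissions, up to 0.124 without ACS array 2 at 2 h. RGS2 was at 1.95 at 2 h (0.276) and at 2.16 at 48 h.

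**Figure D4:**
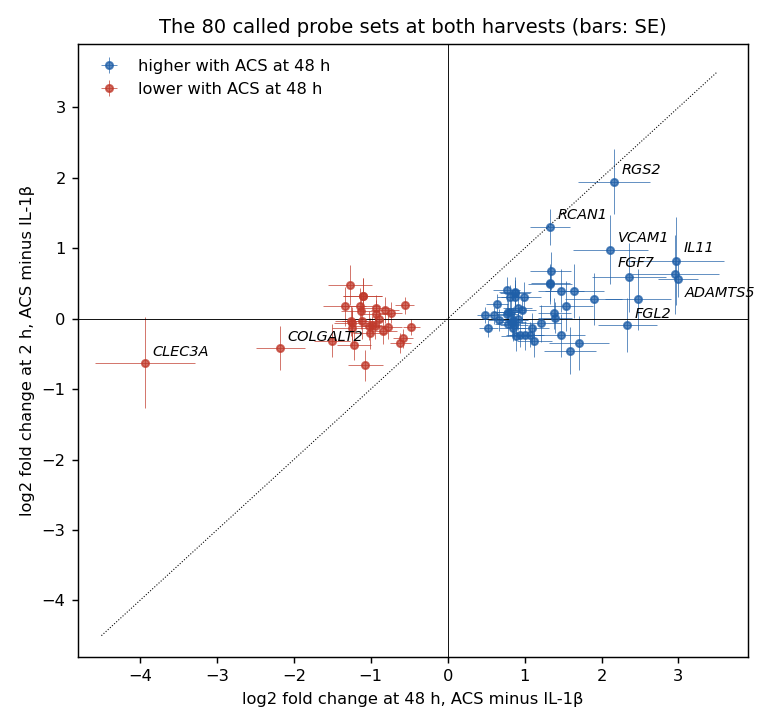
Log2 difference of ACS minus IL-1β alone at 48 h (x axis) against the same at 2 h (y axis) for the 80 called probe sets, with bars for the standard error and a dotted line of equal size. Most points lie near 0 on the y axis, while RCAN1 and RGS2 lie near the dotted line and ADAMTS5 lies at 2.99 and 0.57.

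Set directly against the other sera at 48 h, ACS differed by no probe set at the threshold. Against AES 0 were called by limma (0 percent), with a smallest adjusted p of 0.245 and 3258 probe sets at an unadjusted p under 0.05. The comparison with IL-1β alone had 2324 at that level. Leaving out AES array 3 gave 44 calls (25 higher and 19 lower), and leaving out AES arrays 2 and 4, which stood apart from the other 48 h arrays on the first principal component, gave 0. Against AES24h 0 were called (0 percent), with 756 at an unadjusted p under 0.05, and every omission of an array also gave 0.

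Over the 80 probe sets the differences of ACS from AES ran from -0.62 to 0.94 and from AES24h from -0.48 to 0.71, on the log2 scale. The 95% intervals of limma reached a median of 0.435 to either side of the difference, and at most 1.31, in both comparisons. ADAMTS5 differed by 0.14 from AES (interval -0.40 to 0.67) and by -0.36 from AES24h (-0.90 to 0.17). CLEC3A differed by 0.24 (-1.07 to 1.56) and -0.36 (-1.67 to 0.95). HEG1 with ACS lay above both sera, by 0.53 from AES and 0.42 from AES24h, with unadjusted intervals that left out 0. The 80 were chosen with these same ACS arrays, which by itself tends to widen their differences from the other sera. Over the 80, an unadjusted limma p under 0.05 was found in 10 against AES and 3 against AES24h. Of all 30559 probe sets, 3258 and 756 had one. The smallest limma adjusted p among them against AES was 0.343. In the 4 AES arrays ADAMTS5 had a mean of 9.75 and in the 4 AES24h arrays 10.25, beside 9.89 with ACS.

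**Figure D5:**
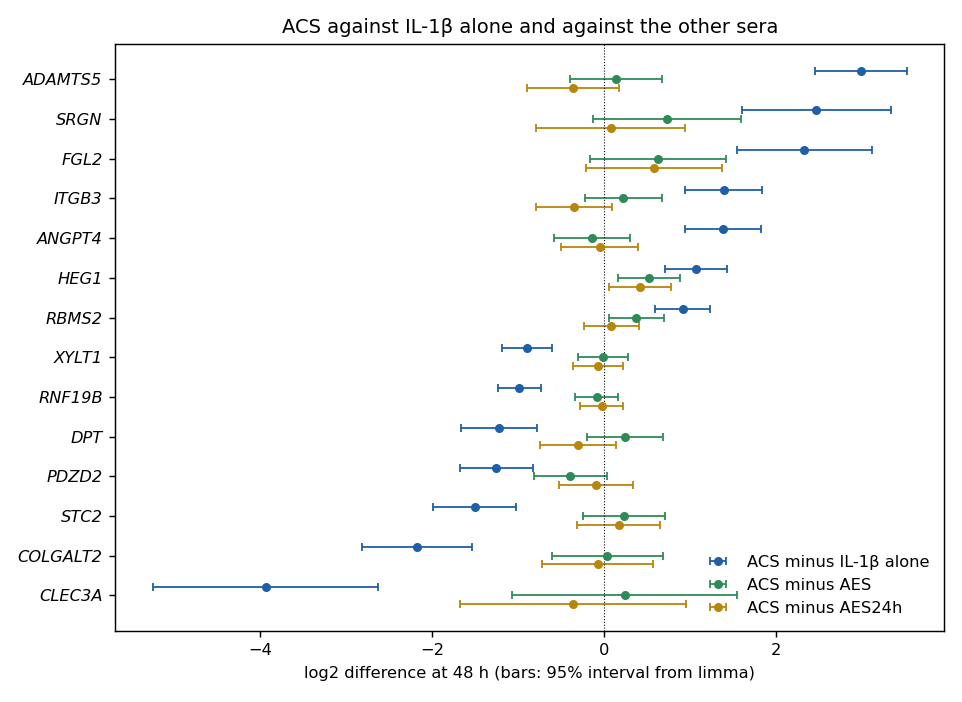
Log2 difference at 48 h (x axis, with 95% intervals from limma) of ACS from IL-1β alone (blue), from AES (green) and from AES24h (gold) for the 14 genes whose call held without any 1 of the 8 arrays. The genes were chosen by the blue difference, so its intervals leave out 0. Most green and gold intervals, which are unadjusted and rest on the same ACS arrays, include 0. HEG1 was above it in both and RBMS2 in the comparison with AES.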

How the data were processed

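RNA of equine chondrocyte pellets was hybridised to 40 Affymetrix Equine Gene 1.0 ST arrays. The deposited values are log2 expression per probe set, between 0.87 and 13.73. The submitters' processing notes name Affymetrix Expression Console, RMA and limma without a role or a version. RMA as usually run normalises across arrays, which would reduce a shift shared by most transcripts. Columns were assigned to groups by their titles. Of 30559 probe sets, 16789 carried 1 symbol in the platform annotation, 343 several and 13427 were unlisted, giving 16661 genes. Where a gene had several probe sets, that with the highest mean over the 40 arrays stood for it. There were 412 probe sets that repeated the values of another. No genome was used, so positions and sequences are not given.

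A linear model with 10 group means was fitted to all 40 arrays in limma 3.58.1 (R 4.3.3), with empirical Bayes moderation and an intensity trend (30 residual and 4.62 prior degrees of freedom) and no replicate term. Tests of 7 comparisons were two-sided, with Benjamini-Hochberg adjustment over all probe sets at 0.05. The procedure was tested on simulated data. The text names the 15 highest and 15 lowest called genes in which no array crosses the mean of the group it is compared with, up to 4 called members of each of 36 gene lists (or the member with the largest statistic), 16 panel genes, and 4 genes at each end of the other comparisons. Members and lists were chosen with earlier results of these data known. Further called genes, members near the threshold, and the called genes set beside control were named after their values were seen. Alternatives changed the replicate term, filter, scaling, spread, threshold or arrays, and leaving out AES arrays 2 and 4 or repeated probe sets was chosen after seeing the data.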

Additional observations from a re-analysis of the deposited data

Results flagged for a closer look

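Single arrays stood apart from the other 3 of their group in 5 of 166 gene groups examined, where chance alone gives about 1 in 20. COL1A1 was at 9.56 in ACS array 1 and at 10.98 to 11.08 in the others. IL1R2 was at 9.75 in ACS array 1 against 11.02 to 11.25. CSPG4 was at 5.51 in ACS array 3 against 6.30 to 6.45, and SCX, a tendon transcription factor, at 5.35 in the same array against 4.60 to 4.67. NOS2 was at 10.45 in IL-1β array 1 against 9.10 to 9.26.

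The effect of ACS differed between the harvest times in 2 genes, by limma's test of the difference. The 48 h effect minus the 2 h effect was 2.42 on the log2 scale for ADAMTS5 and -2.34 for RGS16. What lies behind these differences was not tested.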

How the results depend on the processing

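Recomputed differences covered 83 named genes between ACS and IL-1β alone at 48 h, and the called genes of the 2 h and between-times comparisons. Under all alternatives 1670 of 2133 stayed on their side of the threshold, and 420 kept the direction and were no longer called. A further 43 became called with the same direction, and 0 changed direction while called in either fit. A change of direction in a gene called in neither fit was counted among the 1670. With 1 array or replicate number left out, the calls ran from 10 to 103 for ACS against IL-1β alone at 48 h (80 in the report). They ran from 0 to 44 for ACS against AES (0), 489 to 1186 for ACS against control (1177) and 130 to 487 for IL-1β against control (386). At 2 h they ran from 0 to 18 (8), and for the difference between times from 0 to 4 (2). ACS against AES24h stayed at 0. With the spread of the compared groups only, they were 1, 735 for ACS against control, 0 at 2 h and 0 between times. Array weights gave 152 at 48 h and 757 for IL-1β against control. Centring on medians gave 4 at 2 h and 1 between times, omitting the intensity trend gave 5 at 2 h, and the upper 60% of probe sets by mean gave 6 between times. At 48 h, other settings gave 60 to 107. The causes were not tested.

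Samples with the same replicate number deviated together in part. Their correlation was 0.073 to 0.384 in the 4 pairs of ACS and IL-1β at 48 h, and 3 of 4 correlated best with their own number. Over 32 pairs of all comparisons it was -0.116 to 0.521, 22 were over 0.1 and 27 correlated best with their own number. Not every pair was over 0.1 and the labels state no pairing, so this is a hint from the data and the report uses no block. A replicate block gave 246 calls at 48 h (163 higher and 83 lower), 696 for IL-1β against control, 16 at 2 h and 4 between times, and a random replicate block 148 at 48 h. With the replicate block the adjusted p was 0.0145 for ACAN, 0.00258 for IL1R2 and 0.0193 for IL6, which were not called without it.

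The limits are 4 arrays a group of unstated origin, and probe sets below the array medians, for which direction is clearer than size.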

Other observations

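CXCL13, a chemokine that attracts B cells, had the largest increase with ACS over IL-1β alone at 48 h among all probe sets, without passing the threshold (3.59, limma adjusted p = 0.0926), and was singled out after its values were seen. Of the 6 called probe sets without a listed gene, 2 were higher and 4 lower with ACS, and 1 of the lower repeated the values of another. The cell cycle list mean varied widely between arrays, from 4.30 to 6.07 with ACS and from 4.45 to 5.81 with IL-1β alone.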
